A study of Mus musculus with 6 samples.

Results

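Chemokines are small secreted proteins that direct cell movement, and this account covers the genes for them and for their receptors in the mouse incisor. Members were taken by gene symbol from the deposited count table (the Ccl, Cxcl, Cx3cl and Xcl ligands, the Ccr, Cxcr, Cx3cr and Xcr receptors and the atypical receptors Ackr1 to Ackr4), if annotated as protein-coding. They number 50 of 25700 listed genes, of which 30 are ligands, 16 are typical receptors and 4 are atypical receptors. A further match, Cxcl11, is annotated as a polymorphic pseudogene and was left out. RNA came from the proximal region of the incisor, labelled dental mesenchyme, of 5-week-old C57BL/6 mice, 3 in each group. Controls were Runx2fl/fl mice, with floxed Runx2 alleles and no Cre, and conditional knockout (cKO) mice were Gli1-CreERT2;Runx2fl/fl. The CreERT2 recombinase is expressed from Gli1, so only Gli1-expressing cells are targeted, and it acts after tamoxifen. Per the labels' protocol, tamoxifen was given to mice aged 1 month on 3 consecutive days at 1.5 mg per 10 g body weight, and the protocol is the same for both groups. Tissue was taken 1 week after induction. Because the controls lack Cre, loss of Runx2 and the presence of the CreERT2 allele cannot be told apart.

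A chemokine binds a receptor that crosses the membrane many times and signals through an inhibitory G protein, and the cell then moves up the gradient. Stromal cells, endothelium and epithelium make homeostatic chemokines such as Cxcl12, which retains and places cells, while macrophages and other leukocytes make inflammatory ones. Atypical receptors bind chemokines without signalling through G proteins and take them up. In bone and teeth these genes are known for recruiting the monocytes that become osteoclasts and for holding blood-forming cells near stroma.

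Runx2, the deleted gene, measured 79.7, 77.7 and 81.2 CPM (counts scaled to a common library size, on sizes adjusted by the trimmed mean of M-values) among controls and 62.6, 54.0 and 49.0 CPM among cKO mice. Every cKO mouse was below every control (log2 fold change -0.53, SE 0.089, edgeR adjusted p = 0.0713). Libraries held 53525185 to 66694240 estimated counts, so 1 count was worth 0.0150 to 0.0187 CPM. Markers of mesenchyme and of dental epithelium were both abundant, and neither list had a marker at 0. The mesenchyme markers summed to 12800 to 21327 CPM across controls, against 24395 to 41819 CPM across cKO. The epithelial markers summed to 54375 to 72267 CPM across controls, against 21035 to 43590 CPM across cKO, so the tissue was not mesenchyme alone. The sums are mostly Col1a1 and Col1a2 (11420 and 3871 CPM in controls) and Amelx and Ambn (34515 and 22979 CPM), and Krt14 and Krt5 had log2 fold changes of 0.38 and 0.15. Control 1 was the 1 male, with Xist at 0.596 CPM against at least 2865 CPM in the other 5 mice, and it had the highest skeletal muscle markers (361 CPM against at most 16.1 CPM). Late enamel markers were high in control 2 (1802 CPM) and in all 3 cKO mice (1118 to 2635 CPM), against 118 and 102 CPM in control 1 and control 3. Macrophage and monocyte markers summed to 661 to 821 CPM across controls, against 927 to 1103 CPM across cKO, with 12 of 14 higher and 1 lower at an unadjusted edgeR p under 0.05 (8.71% higher and 8.55% lower over all tested genes) and no marker at 0. Neutrophil markers summed to 17.7 to 19.8 CPM across controls, against 72.1, 45.0 and 25.9 CPM across cKO 1 to 3. Itgam alone was 15.3, 14.6 and 12.2 CPM of the control sums and 20.7 CPM of the cKO 3 sum. With 0.05 CPM added, the mean log2 level of the 14 markers was 2.69, 2.30 and -0.20 in cKO 1 to 3. Controls, whose mean was set to 0, were at 0.065, -0.28 and 0.22, so cKO 3 lay within their range. Of the 10 neutrophil markers tested, of 14 listed, 9 were higher and 0 lower at an unadjusted p under 0.05, and 4 of the 14 were at 0 in at least 1 library: Ly6g in all controls and cKO 3, Elane in control 2 and cKO 3, Mpo in control 2 and Camp in cKO 3. Endothelial markers summed to 577 to 656 CPM and 706 to 744 CPM, with 5 of 10 higher and 0 lower at an unadjusted p under 0.05. Dendritic cell markers summed to 22.1 to 24.0 CPM across controls, against 27.0 to 29.9 CPM across cKO. Of these 8 markers 1 was higher and 1 lower at an unadjusted p under 0.05. In bulk tissue, more cells of a type and more RNA per cell cannot be told apart.

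**Figure D1:**
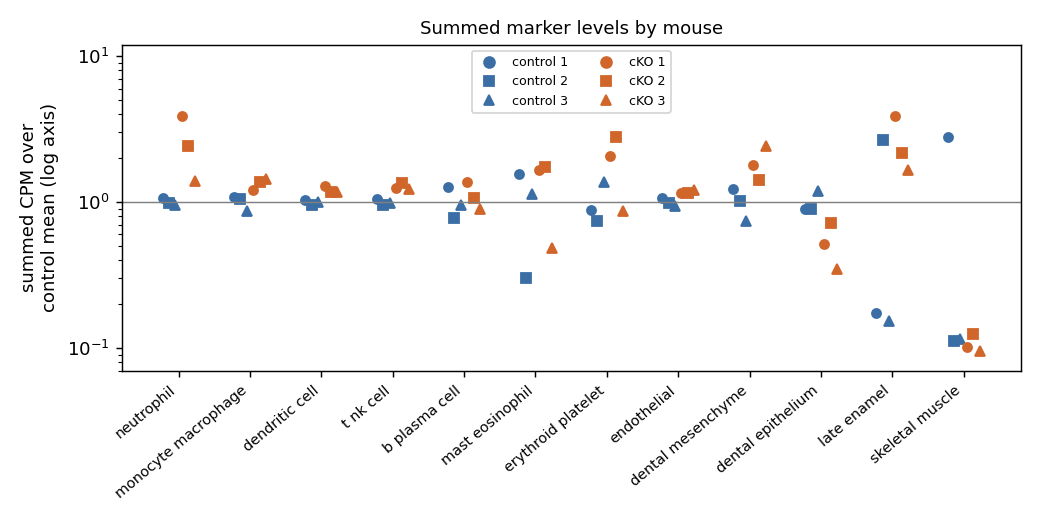
Summed CPM of each marker list in each mouse, divided by the mean of the 3 controls (log axis; blue, control; orange, cKO; circle, square and triangle, mouse 1, 2 and 3). The macrophage, neutrophil, dendritic cell, T and natural killer cell, endothelial and mesenchyme sums are higher in all 3 cKO mice than in any control. The epithelial sum is lower in all 3. Neutrophil sums are highest in cKO 1 and cKO 2, and the muscle sum is high in control 1 alone.

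No chemokine or receptor gene passed the test between genotypes, yet the genes leaned toward higher levels in cKO mice. The comparison asks which of these genes differ after Runx2 is deleted in Gli1-expressing cells. Of the 50 members, 40 had enough counts to be tested. None of the 40 was called (edgeR quasi-likelihood test, Benjamini-Hochberg adjusted p under 0.05 over 19264 genes), where 0.026% of all tested genes were called (0.0208% higher, 0.00519% lower). The lowest adjusted p among members was 0.0878. At an unadjusted edgeR p under 0.05, 9 members were higher in cKO mice and 0 lower, or 22.5% higher, against 8.71% higher and 8.55% lower over all tested genes. In 10 members every cKO mouse lay above every control and in 0 every cKO mouse lay below, against 11.1% and 12% of all tested genes. The log2 fold change was above 0 for 30 of 40 members (50% of all tested genes), with a median of 0.31 for the members and 0.00 for all tested genes. The median was 0.46 for the 24 tested ligands and 0.062 for the 16 tested receptors. DESeq2 called 5 of the 35 members to which it gave an adjusted p, all higher, against 7.16% of all genes called, 3.73% higher and 3.43% lower. These were Cxcl14, Cx3cl1, Cx3cr1, Ackr4 and Cxcl16. The 40 are those with enough counts and not all members, so the counts describe this set and carry no test. Ccl17 reached the level of the count filter (0.160 CPM) in 0 controls and all 3 cKO mice, so it was tested only through the group where it is high, and without it the counts are 8 and 9. Ccl3 reached that level in 1 control and all 3 cKO mice, so it too was tested through the cKO group. Of the 36 members at that level in all 6 libraries, 8 were higher and 0 lower at an unadjusted p under 0.05. In 8 of these 36 every cKO mouse lay above every control, and their median was 0.25. The matching shares of all genes were not counted. With neutrophil marker level as a covariate the median of the 40 was 0.0902. That level sets cKO 1 and cKO 2 apart from the controls and cKO 3, so the genotype difference of this fit rests mainly on cKO 3. In that fit 7 members were higher and 2 lower at an unadjusted p under 0.05, with 8.14% of all tested genes higher. Leaving out single mice moved the median most without cKO 2 (0.15) and without control 3 (0.20). Without control 1, every cKO mouse lay above both remaining controls in 19 members, where the share of all tested genes was 16.7%.

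**Figure D2:**
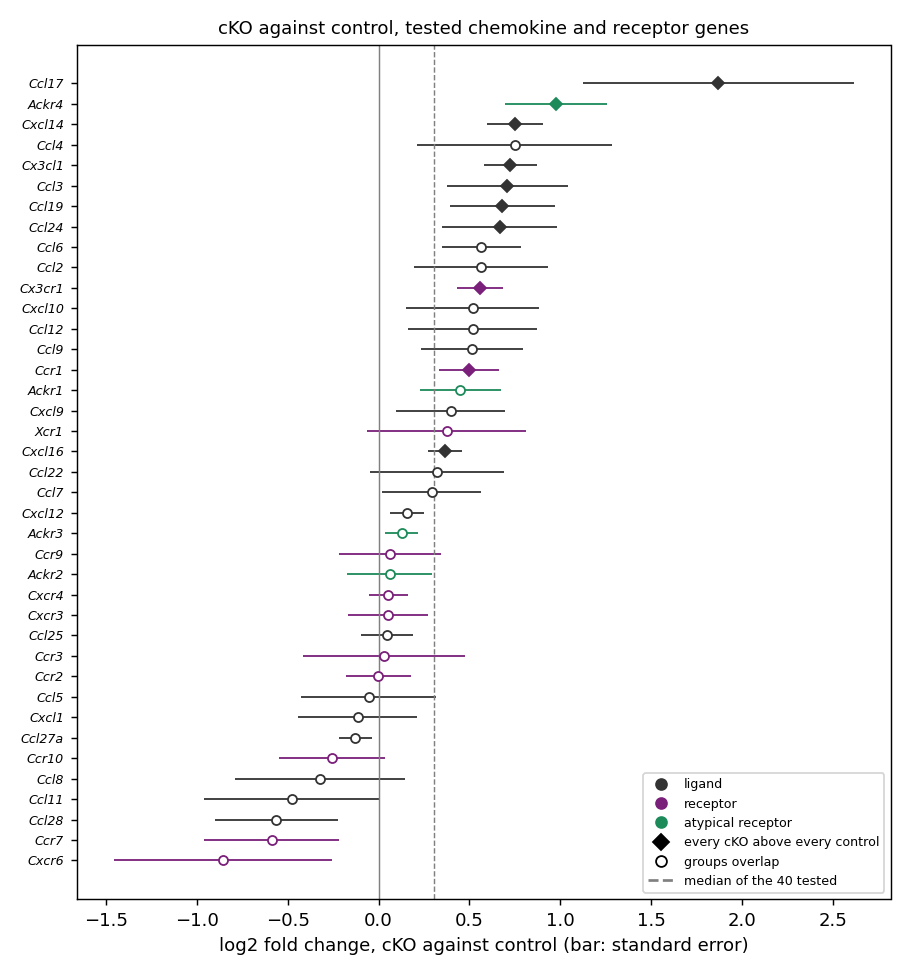
Log2 fold change of 39 of the 40 tested genes, cKO against control, with its standard error (edgeR, 3 mice a group; colour, role; filled diamond, every cKO mouse above every control). The points lean to the right of 0, with a median of 0.31. The 10 filled diamonds lie on the right by definition, and 11.1% of all tested genes have groups apart in this way.

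Levels differed over more than 3 orders of magnitude. Only Cxcl12 had a mean of at least 100 CPM, 11 members reached 10 CPM, 20 reached 1 CPM and 42 reached 0.1 CPM. Cxcl12 made up 56.6% of the summed CPM of the 30 ligands, and with Cxcl14 79.8%. Among the 20 receptors, Ackr3 made up 41.1% and together with Cx3cr1 61.8%. The ligand sum was 331 ± 38.5 CPM (SD, n = 3) in controls and 416 ± 6.36 CPM in cKO mice, and the receptor sum 137 ± 11.0 and 169 ± 1.14 CPM. The lowest cKO sum lay above the highest control sum for both. Per kilobase of exon, the order of mean levels began with Cxcl14 (47.5 CPM per kb), Cxcl12 (25.8), Ackr3 (18.7), Cx3cr1 (7.01), Cxcr4 (5.78), Ccl12 (5.38), Cx3cl1 (5.21) and Ccl27a (5.01). Of these neighbours, only Ackr3 and Cx3cr1 were apart in all mice, since the lowest Ackr3 value (17.0 CPM per kb) was above the highest Cx3cr1 value (9.55). Cxcl14 and Cxcl12 overlapped, with Cxcl14 between 27.6 and 62.1 and Cxcl12 between 21.3 and 27.8 CPM per kb. Exon lengths are unions over transcripts (8.176 kb for Cxcl12), so the order depends on the annotation.

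**Figure D3:**
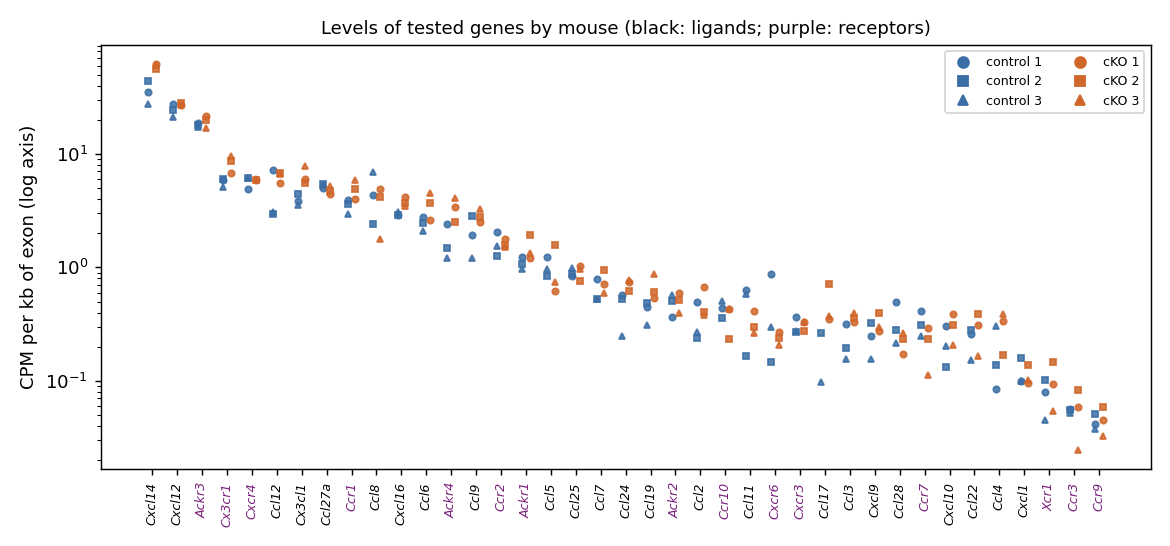
CPM per kilobase of exon of 39 of the 40 tested genes in each mouse, ordered by mean (log axis; blue, control; orange, cKO; a value of 0, Ccl17 in control 1, is not drawn). Cxcl14, Cxcl12 and Ackr3 stand above 15 CPM per kb in every mouse, and every other gene drawn stays below 10.

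Of the 6 members of lowest p, Cx3cl1, Cxcl14, Cx3cr1, Cxcl16, Ackr4 and Ccr1, promoters are shown for 5, because these members share a direction and Runx2 is a DNA-binding factor. Sequences are from RefSeq (GRCm38.p6, the assembly of mm10) and run from 250 bases before a start site to 50 after it. In all, 46 such windows were matched by symbol to 39 of the 50 members. Some members have several windows, and those of Ccl27a and of Ccl27b partly overlap, so windows are not independent. The Ccl21b window (chr4:42172870-42173169) lies away from the deposited Ccl21b gene (42255767 to 42256432). Capitals mark the Runx core ACCACA and the kappa B consensus, a site of the NF-kappaB factors, both searched on both strands. In order, the windows are chr13:56296502-56296801 (minus strand), chr8:94771930-94772229 (plus), chr9:120068247-120068546 (minus), chr9:104126594-104126893 (minus) and chr9:123968643-123968942 (minus).
Cxcl14: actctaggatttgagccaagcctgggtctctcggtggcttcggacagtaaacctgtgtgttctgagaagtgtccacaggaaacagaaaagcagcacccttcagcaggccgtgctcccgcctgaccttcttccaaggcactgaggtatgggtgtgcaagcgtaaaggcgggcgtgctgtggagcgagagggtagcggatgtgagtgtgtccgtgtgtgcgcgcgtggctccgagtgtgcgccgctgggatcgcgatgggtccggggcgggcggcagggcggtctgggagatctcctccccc
Cx3cl1: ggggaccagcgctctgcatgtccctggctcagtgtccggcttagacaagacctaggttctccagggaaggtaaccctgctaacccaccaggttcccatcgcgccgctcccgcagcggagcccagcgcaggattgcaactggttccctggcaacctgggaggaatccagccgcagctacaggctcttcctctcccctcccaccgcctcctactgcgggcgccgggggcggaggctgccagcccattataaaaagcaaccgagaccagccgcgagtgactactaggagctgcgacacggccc
Cx3cr1: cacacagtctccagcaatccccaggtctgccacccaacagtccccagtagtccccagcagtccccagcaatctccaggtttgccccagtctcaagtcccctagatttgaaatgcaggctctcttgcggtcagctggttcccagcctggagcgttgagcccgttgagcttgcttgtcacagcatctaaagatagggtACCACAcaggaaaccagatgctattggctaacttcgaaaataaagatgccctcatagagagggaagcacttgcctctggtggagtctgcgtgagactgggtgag
Ackr4: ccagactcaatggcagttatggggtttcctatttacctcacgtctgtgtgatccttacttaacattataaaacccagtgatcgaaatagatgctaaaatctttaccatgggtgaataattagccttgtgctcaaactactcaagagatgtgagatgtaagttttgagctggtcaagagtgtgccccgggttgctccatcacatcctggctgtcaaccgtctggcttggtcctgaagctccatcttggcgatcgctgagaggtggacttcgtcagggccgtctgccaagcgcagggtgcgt
Ccr1: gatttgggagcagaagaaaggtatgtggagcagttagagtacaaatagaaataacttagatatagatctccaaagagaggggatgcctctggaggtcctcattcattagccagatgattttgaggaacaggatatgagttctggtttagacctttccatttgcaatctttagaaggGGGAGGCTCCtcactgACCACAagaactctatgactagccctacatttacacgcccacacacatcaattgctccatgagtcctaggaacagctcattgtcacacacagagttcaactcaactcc
Cx3cr1 holds the Runx core with its first base at position -54, counted with the start site as 0. Ccr1 holds it at position -58, next to a kappa B match at -74. The windows of Cxcl14, Cx3cl1 and Ackr4 hold neither. Over all members 9 of 46 windows (19.6%) hold the Runx core, against 16.8% of 32851 windows of all genes. The kappa B consensus is in 9 of 46 (19.6%), against 8.46% of all windows, and those 9 include Cxcl1, Cxcl2 and Cxcl10. A match describes these letters and does not show binding.

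Cxcl12, a stromal chemokine that holds stem and blood-forming cells in place (chromosome 6, 117168535 to 117181367, mm10), was the most abundant member by CPM. It measured 225, 199.8 and 174 CPM across controls, against 221, 228 and 219 CPM across cKO. The groups overlapped, since control 1 lay within the cKO range (log2 fold change 0.16, SE 0.094, edgeR adjusted p = 0.451). Its receptor Cxcr4 measured 8.79, 11.0 and 11.0 CPM across controls, against 10.6, 10.6 and 10.8 CPM across cKO (0.052, SE 0.11, edgeR adjusted p = 0.846). Ackr3, which takes up Cxcl12 from the surroundings, measured 62.9, 59.7 and 57.4 CPM across controls, against 72.4, 67.3 and 56.8 CPM across cKO (0.13, SE 0.093, edgeR adjusted p = 0.538). For all 3 genes of this axis the groups overlapped, and the log2 difference was at most 0.16.

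Cxcl14, a chemokine of epithelium and fibroblasts whose receptor is not settled (chromosome 13, 56288643 to 56296551), had the second lowest p among the members. It measured 64.0, 79.6 and 50.4 CPM across controls, against 113, 102 and 112 CPM across cKO. Every cKO mouse was above every control, and the cKO mice lay closer together than the controls. The mean was 64.7 ± 14.6 CPM (SD, n = 3) in controls and 109 ± 6.32 CPM in cKO mice, a 1.68-fold level (log2 fold change 0.75, SE 0.15, edgeR adjusted p = 0.0881, DESeq2 adjusted p = 0.000279). Over the 14 alternative fits its log2 fold change stayed between 0.60 and 0.93. Of 10 mesenchyme markers 7 were above every control in all 3 cKO mice, and of 10 epithelial markers 3 were below and 7 overlapped. Over all tested genes, 11.1% were above and 12% below in this way. The part of both marker lists in the Cxcl14 difference was not tested.

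Both partners of the fractalkine pair were higher in cKO mice. Cx3cl1, or fractalkine, is tethered to the membrane of endothelial and other cells and can be shed from it (chromosome 8, 94772009 to 94782427). It measured 15.1, 17.3 and 13.9 CPM across controls, against 23.7, 21.8 and 31.0 CPM across cKO. The groups did not overlap and cKO 3 was the highest (1.65-fold, log2 fold change 0.73, SE 0.15, edgeR adjusted p = 0.0878, DESeq2 adjusted p = 0.000457). With neutrophil marker level as a covariate, Cx3cl1 was the 1 member called by edgeR (log2 fold change 0.98, adjusted p = 0.0475), where 0.379% of all tested genes were called. Of the cKO mice only cKO 3 lay within the control range of that level, so the genotype difference of that fit rests mainly on cKO 3. The endothelial marker sum was also above every control in all 3 cKO mice, and its part was not tested. Cx3cr1, its receptor on monocytes and tissue macrophages (chromosome 9, 119901616 to 120069879), measured 26.6, 26.8 and 23.2 CPM across controls, against 30.8, 39.1 and 43.0 CPM across cKO. Here too the groups did not overlap, with cKO 1 nearest to the controls (1.47-fold, log2 fold change 0.56, SE 0.13, edgeR adjusted p = 0.107, DESeq2 adjusted p = 0.00368). The macrophage marker sum given above was also higher in all 3 cKO mice than in any control, and its part in the Cx3cr1 difference was not tested. Adam10 and Adam17, the proteases that shed Cx3cl1 and Cxcl16, had log2 fold changes of -0.062 (SE 0.068) and -0.072 (SE 0.056).

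Cxcl16, the other membrane-tethered chemokine (chromosome 11, 70453983 to 70459984), measured 8.73, 8.67 and 9.26 CPM across controls, against 12.6, 11.2 and 10.5 CPM across cKO. The groups did not overlap (1.29-fold, log2 fold change 0.37, SE 0.095, edgeR adjusted p = 0.131, DESeq2 adjusted p = 0.0277). It shares 18.3% of its exonic bases with the antisense gene Zmynd15, whose own log2 fold change was 0.41 (2.15 and 2.87 CPM), and the labels do not say whether reads keep strand. Its receptor Cxcr6, of T cells and natural killer T cells, measured 1.69, 0.286 and 0.574 CPM across controls, against 0.522, 0.464 and 0.400 CPM across cKO. Control 1 alone was high, and without it the sign of the Cxcr6 difference turned (log2 fold change 0.12 against -0.86).

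Cx3cl1 lies on chromosome 8 between Ccl22 and Ccl17, with all 3 ligands inside 66.4 kb. Ccl17, a ligand of Ccr4 on T cells, had 0, 9 and 3 counts across controls, against 12, 23 and 12 counts across cKO. Scaled to depth, the ratio of the sums was 3.66, with a 95% Clopper-Pearson interval of 1.91 to 7.58 that covers counting error only (edgeR adjusted p = 0.261). It passed the count filter only through the cKO mice, so a higher cKO level was a condition of its being tested. Its fitted log2 fold change of 1.87 depends on the prior count and was 3.12 without control 2 and 1.36 without control 1. Ccl22, the other Ccr4 ligand, measured 0.596, 0.646 and 0.355 CPM across controls, against 0.716, 0.896 and 0.384 CPM across cKO, and the groups overlapped. Ccr4 itself summed to 5 counts over controls and 7 over cKO, too few to test.

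**Figure D4:**
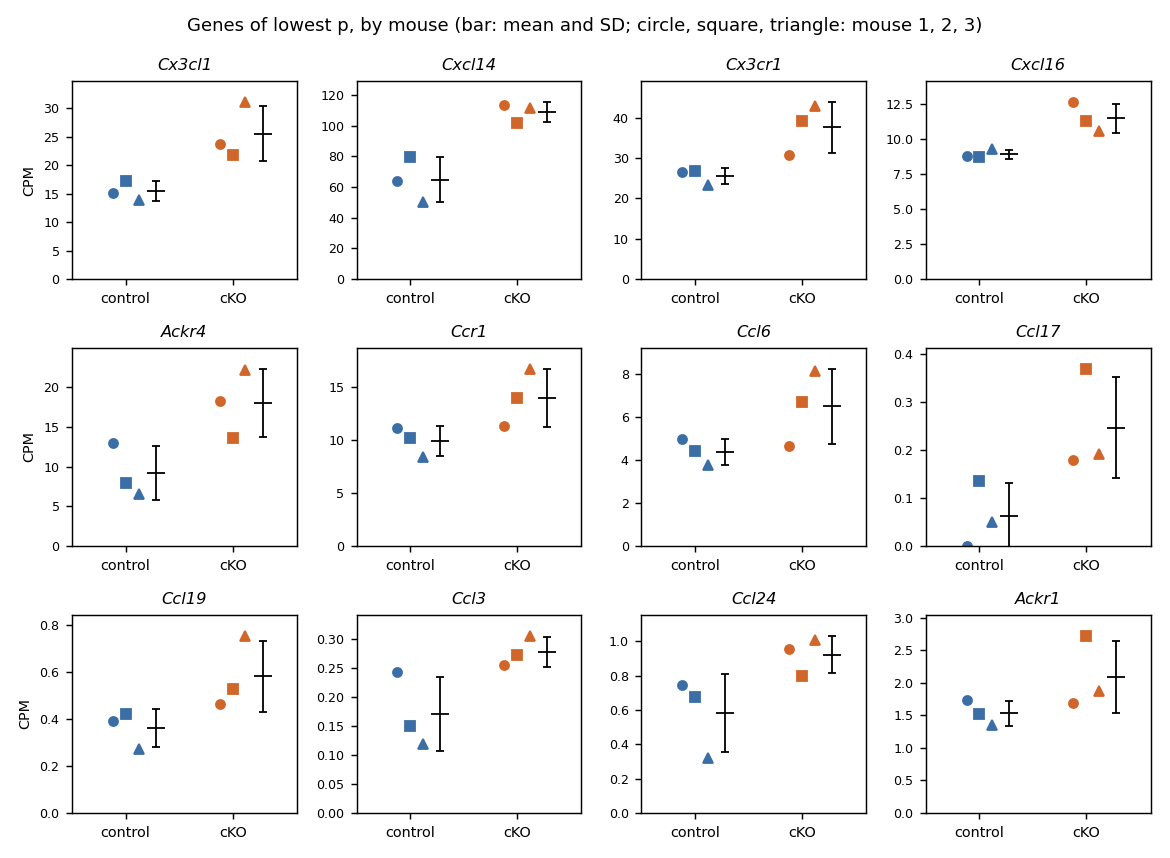
CPM by mouse of the 12 tested genes of lowest p, each on its own axis from 0 (blue, control; orange, cKO; black bar, mean and SD over 3 mice). The groups are apart in 10 of the 12 panels, a count that choosing by p favours (23.1% of all tested genes, either direction). Of these, Ccl17 and Ccl3 passed the count filter through the cKO mice. In Ccl6 and Ackr1 cKO 1 falls among the controls.

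Ackr4 takes up Ccl19, Ccl21 and Ccl25 and so limits the supply to Ccr7 and Ccr9 (chromosome 9, 104084157 to 104126933). It measured 13.0, 7.98 and 6.52 CPM across controls, against 18.3, 13.6 and 22.2 CPM across cKO. The groups did not overlap, but control 1 and cKO 2 were close (1.97-fold, log2 fold change 0.98, SE 0.28, edgeR adjusted p = 0.153, DESeq2 adjusted p = 0.00756). Ackr4 shares 8.90% of its exonic bases with the antisense gene Acad11, whose levels were 29.7 CPM in controls and in cKO mice. Among its ligands, Ccl19 measured 0.391, 0.421 and 0.270 CPM across controls, against 0.463, 0.528 and 0.753 CPM across cKO, with no overlap (log2 fold change 0.68, SE 0.29, edgeR adjusted p = 0.289). Ccl25, a chemokine of thymus and gut, measured 6.20, 6.48 and 7.30 CPM across controls, against 7.72, 5.70 and 7.21 CPM across cKO. Ccl21a had 4, 6 and 2 counts across controls, against 0, 14 and 8 across cKO, and Ccl21b had 3 and 7 counts in the groups. Ccl21a and Ccl21b are near-identical copies, so reads may be split between them. Ccr7, the homing receptor of dendritic cells and naive T cells, measured 0.819, 0.616 and 0.490 CPM across controls, against 0.582, 0.464 and 0.224 CPM across cKO (a log2 fold change of -0.59, SE 0.37, edgeR adjusted p = 0.471). Ccr9 measured 0.428, 0.526 and 0.389 CPM across controls, against 0.463, 0.608 and 0.336 CPM across cKO. The groups were apart for the atypical receptor and for Ccl19, and overlapped for Ccr7, Ccr9 and Ccl25; whether the differences of Ackr4 and Ccr7 differ was not tested.

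The remaining atypical receptors, Ackr1 and Ackr2, bind inflammatory ligands. Ackr1, found on venules and red cells, measured 1.73, 1.52 and 1.35 CPM across controls, against 1.69, 2.72 and 1.87 CPM across cKO (a log2 fold change of 0.45, SE 0.22, edgeR adjusted p = 0.357). It shares 25.7% of its exonic bases with Cadm3 on the same strand, whose log2 fold change was 0.69 (7.39 and 11.9 CPM). Erythroid and platelet markers summed to 32.3 to 59.5 CPM in control and 37.8 to 121 CPM in cKO libraries, and their part was not tested. Ackr2, a lymphatic scavenger of inflammatory CC chemokines, measured 1.14, 1.59 and 1.77 CPM across controls, against 1.85, 1.62 and 1.23 CPM across cKO, and the groups overlapped.

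Among myeloid receptors, Ccr1 had groups apart and Ccr2 did not. Ccr1, a receptor of monocytes, macrophages and osteoclast precursors, measured 11.1, 10.2 and 8.34 CPM across controls, against 11.3, 13.9 and 16.7 CPM across cKO. The groups did not overlap, although control 1 and cKO 1 nearly met (1.41-fold, log2 fold change 0.50, SE 0.17, edgeR adjusted p = 0.203, DESeq2 adjusted p = 0.0695). The macrophage marker sum moved the same way, and its part in the Ccr1 difference was not tested. Ccl6 and Ccl9 are rodent myeloid chemokines that bind Ccr1. Ccl6 measured 4.97, 4.43 and 3.75 CPM across controls, against 4.67, 6.69 and 8.12 CPM across cKO (0.57, SE 0.22, edgeR adjusted p = 0.247). Ccl9, a product of osteoclasts, measured 5.85, 8.55 and 3.72 CPM across controls, against 7.60, 8.45 and 9.86 CPM across cKO (0.51, SE 0.28, edgeR adjusted p = 0.402). In Ccr1, Ccl6 and Ccl9 the highest mouse was cKO 3 and the lowest was control 3. Over all tested genes, cKO 3 was highest in 20.1% and control 3 lowest in 22.9%. In the 10 members with groups apart, Ccr1 among them, these mice were highest in 7 and lowest in 8, so the order is not particular to these 3 genes. In those 10 the highest mouse is a cKO and the lowest a control by definition, so the shares over all tested genes are no measure for them. Ccl3 had 13, 10 and 7 counts across controls, against 17, 17 and 19 across cKO, a depth-scaled ratio of 1.65 (95% Clopper-Pearson interval 1.04 to 2.68, edgeR adjusted p = 0.332), with no overlap. That interval covers counting error only and not the spread between mice. Ccl3 reached the filter level in only 1 of the 3 controls, so it was tested through the cKO mice. Ccl4 had 21 and 38 counts in the groups.

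Ccr2, the receptor that brings monocytes out of marrow, measured 13.9, 8.45 and 10.5 CPM across controls, against 12, 10.6 and 10.2 CPM across cKO. Its group means were both 10.9 CPM (log2 fold change -0.0018, SE 0.18, edgeR adjusted p = 0.997). Among its ligands, Ccl2 measured 0.558, 0.271 and 0.304 CPM across controls, against 0.761, 0.464 and 0.432 CPM across cKO (0.56, SE 0.37, edgeR adjusted p = 0.486). Ccl12, a rodent Ccr2 ligand, measured 3.91, 1.58 and 1.66 CPM across controls, against 2.97, 3.68 and 3.54 CPM across cKO, where control 1 was above all cKO mice. Per kilobase of exon, mean Ccl12 (5.38 CPM per kb) was above Ccr2 (1.62). Ccl7 had means of 0.492 and 0.600 CPM. Ccl8 measured 2.23, 1.23 and 3.51 CPM across controls, against 2.51, 2.14 and 0.913 CPM across cKO. Ccl5, a chemokine of T cells, measured 1.19, 0.812 and 0.929 CPM across controls, against 0.597, 1.50 and 0.721 CPM across cKO.

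Neighbouring genes were compared in a pair of ligand clusters. On chromosome 11, the 5 ligands Ccl2, Ccl7, Ccl11, Ccl12 and Ccl8 lie within 81.2 kb, with log2 fold changes from -0.48 to 0.56 and 3 of 5 above 0. The 5 ligands Ccl5, Ccl9, Ccl6, Ccl3 and Ccl4 lie within 139 kb of the same chromosome, from -0.054 to 0.75 and 4 of 5 above 0. The value below 0 was that of Ccl5, which was above 0 without control 1 (0.115), without cKO 1 (0.194) and without cKO 3 (0.104). The value with the sex covariate (0.11) adds little to these. Control 1 was the only male, and adjusting for sex nearly repeats leaving it out.

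Cxcr2, the receptor that draws neutrophils, was too low for the count filter but had the highest ratio of cKO to control counts among the low-count members. It had 3, 0 and 4 counts across controls, against 55, 15 and 9 across cKO, with cKO 1 holding most of them. The depth-scaled ratio was 10.6 (95% Clopper-Pearson interval 4.89 to 27.1, counting error only). Without a filter, edgeR gave a log2 fold change of 3.30 (SE 0.95, unadjusted p = 0.00933, adjusted p = 0.185), in a fit where 7.66% of all genes were higher at an unadjusted p under 0.05. The neutrophil marker sum followed the same order in cKO mice (72.1, 45.0 and 25.9 CPM), and its part in the Cxcr2 difference was not tested. The Cxcr2 ligand Cxcl1 had 41 counts across controls, against 40 across cKO (ratio 0.912, 95% interval 0.575 to 1.45), and Cxcl2 had 4 and 13 counts (ratio 3.04, 0.939 to 12.8). No mouse had more than 20 counts of either ligand, and Cxcl5 was not analysed here.

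The remaining members, known from lymphocytes, eosinophils, skin and mucosa, were below 3 CPM in every mouse except Ccl27a, and only Ccl24 among them had groups apart. T and natural killer cell markers summed to 9.37 to 10.2 CPM in control and 11.98 to 13.3 CPM in cKO libraries. Of the 8 tested, 4 were above 0 and 4 below, Cd4 alone had groups apart (4.96 and 7.66 CPM), and the untested Cd3e and Cd8a were below every control in all cKO mice. Cxcr3, of activated T cells, measured 0.633, 0.466 and 0.473 CPM across controls, against 0.567, 0.480 and 0.576 CPM across cKO. Its interferon-induced ligands were Cxcl9, at 0.745, 0.977 and 0.473 CPM across controls, against 0.821, 1.18 and 0.897 CPM across cKO, and Cxcl10, at 0.689, 0.301 and 0.456 CPM across controls, against 0.881, 0.704 and 0.464 CPM across cKO. Ccl24, an eosinophil attractant made by macrophages, measured 0.745, 0.676 and 0.321 CPM across controls, against 0.955, 0.800 and 1.01 CPM across cKO (a log2 fold change of 0.67, SE 0.32, edgeR adjusted p = 0.337). Ccl11, the other eosinophil attractant here, had means of 0.498 and 0.352 CPM, and their receptor Ccr3 had 32 and 35 counts in the groups. Ccl27a, a keratinocyte chemokine, measured 11.8, 12.9 and 12.6 CPM across controls, against 10.5, 11.2 and 12.4 CPM across cKO (-0.13, SE 0.090, edgeR adjusted p = 0.520). Its near copy Ccl27b had 10 and 12 counts in the groups, and reads may be split between them. Ccl28, a mucosal chemokine, measured 2.42, 1.35 and 1.05 CPM across controls, against 0.836, 1.14 and 1.28 CPM across cKO. Ccr10, the receptor of Ccl27a and Ccl28, measured 0.763, 0.616 and 0.878 CPM across controls, against 0.746, 0.400 and 0.737 CPM across cKO. Cxcl13 had 20 and 28 counts and its receptor on B cells, Cxcr5, 12 and 13. Xcl1 had 10 and 14 counts, and Xcr1, its receptor on cross-presenting dendritic cells, had means of 0.336 and 0.438 CPM. Ccr6 had 8 counts in control 1, 0 in the other two controls and 1 in each cKO mouse, and its ligand Ccl20 was not analysed here.

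Other genes of the pathway were read from lists written with earlier results of these data known, and no listed gene passed the edgeR test (0.026% of all tested genes called). DESeq2, which called 3.73% of all genes higher and 3.43% lower, called 7 of 15 adhesion genes higher, 5 of 24 signalling genes higher and 2 lower, 3 of 14 cytokine and receptor genes higher, 1 of 9 proteases higher, 1 of 8 outside-pattern family genes higher and 0 of 12 NF-kappaB genes. Of 15 tested genes of leukocyte adhesion in vessels, 15 had log2 fold changes above 0, against 50% of all tested genes. Of these, 8 had an unadjusted p under 0.05 toward cKO, against 8.71% of all genes. The 3 of lowest p were Vcam1, an endothelial and stromal ligand of integrins (58.1 ± 7.59 and 95.9 ± 3.77 CPM, SD, n = 3), Sele, an endothelial selectin (0.522 ± 0.0490 and 1.21 ± 0.112 CPM), and Pecam1, an endothelial junction protein (94.4 ± 2.81 and 113 ± 3.31 CPM). Their adjusted p by edgeR were 0.0614, 0.0649 and 0.0878. The others of the 8 were Itgb2, Selplg, Jam2, Itgam and Itgal. Endothelial, macrophage and neutrophil marker sums were also higher, as given above. Pecam1 is one of the endothelial markers and Itgam one of the neutrophil markers. The part of these marker lists in the adhesion genes was not tested. Of 24 tested signalling genes downstream of the receptors, 9 were higher and 2 lower at an unadjusted p under 0.05. Arrb1, an arrestin that desensitizes receptors, measured 263 ± 25.5 CPM across controls, against 185 ± 15.6 CPM across cKO (edgeR adjusted p = 0.0819), while the leukocyte genes Plcb2 (2.78 ± 0.136 and 4.05 ± 0.278 CPM) and Was (3.77 ± 0.517 and 5.67 ± 0.417 CPM) were higher in all 3 cKO mice than in any control. Of 16 tested cytokines and receptors that induce chemokines, 5 were higher and 0 lower at an unadjusted p under 0.05, led by Tnfrsf1b (8.99 ± 0.641 and 12.1 ± 0.597 CPM), Il4ra (21.2 ± 3.48 and 29.5 ± 2.57 CPM) and Csf1 (57.1 ± 10.3 and 76.4 ± 3.58 CPM). Tnf was at 0.152 and 0.255 CPM and Il1b at 0.205 and 0.289 CPM.

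Of 12 NF-kappaB subunits and feedback genes, 0 had an unadjusted edgeR p under 0.05, DESeq2 called 0, and the median log2 fold change was 0.071. Those of lowest p were Nfkb2 (18.7 ± 0.667 and 20.6 ± 0.971 CPM), Relb (7.45 ± 0.554 and 8.55 ± 0.0233 CPM) and the inhibitor Nfkbia (35.6 ± 3.01 and 41.6 ± 5.85 CPM). Of 9 tested proteases that trim chemokines, 2 were higher and 1 lower at an unadjusted p under 0.05, where 8.71% and 8.55% of all tested genes were. Mmp12, the macrophage elastase, measured 0.130, 0.271 and 0.625 CPM across controls, against 2.58, 5.66 and 0.849 CPM across cKO. Mmp9, a gelatinase of osteoclasts and neutrophils, measured 32.3, 25.2 and 44.5 CPM across controls, against 18.7, 18.9 and 8.26 CPM across cKO, and Mmp8, which is also a neutrophil marker, was high in cKO 1 and cKO 2 (3.48 and 1.38 CPM). Of 8 chemokine family genes whose names fall outside the patterns, 1 was higher at an unadjusted p under 0.05 (12.5%, near the share of all genes). That gene was the platelet chemokine Pf4, at 8.75 ± 0.805 and 11.8 ± 1.31 CPM. The cytokine Mif measured 49.8 ± 1.13 and 55.2 ± 4.03 CPM and the chemerin receptor Cmklr1 20.1 ± 4.13 and 25.4 ± 2.58 CPM.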

How the data were processed

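RNA-seq of 6 libraries was used, 3 per genotype, with groups from the genotype label. Per the submitters' processing notes the authors used STAR 2.6.1d, Partek and build mm10. For annotation, counting settings and strand the sources used here state nothing. The deposited estimated counts, where raw counts had been foreseen, were whole for 45.6% to 48.0% of values per library (tolerance 1e-09) and were rounded. The authors' normalized signal equals the estimated count plus 1, multiplied by a factor per library (100% of values within 0.1%) and was used only as an alternative, on the log2 scale with limma 3.58.1. Genes were filtered with filterByExpr (minimum count 10, total 15), scaled by TMM and tested with edgeR 4.0.16's quasi-likelihood F-test, two-sided, without covariates (R 4.3.3). Standard errors come from the fold change and F. DESeq2 1.42.0, RLE and upper-quartile scaling, other filters, sex and neutrophil covariates and leaving out each mouse were the alternatives. The fit was tested on simulated data. Members and lists were chosen with earlier results of these data known. Genes given per mouse follow a written rule: the 12 of lowest p, the 5 most abundant ligands and receptors, and textbook ligand and receptor pairs. Pathway lists name the 3 of lowest p. Adam10, Adam17, Tnf, Il1b, the genes sharing exons, and the kappa B search were added after values were seen, as were per-mouse values of other members. Exon lengths and shared bases are from GENCODE M21. Coordinates are the deposited ones with the end reduced by 1. Each library carries its own mouse number, so p-values measure the spread between mice. 1 member is counted but not reported here by name or value.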

Additional observations from a re-analysis of the deposited data

How the results depend on the processing

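No paired analysis was possible because the mouse numbers differ between the groups and the labels do not say which mice form a pair. Over all genes edgeR called 5, DESeq2 1301, the fit with the neutrophil marker covariate 73, the fit with the sex covariate 0 (3073 at an unadjusted p under 0.05), and fits without 1 mouse 0 to 72. The 0 came without control 1, cKO 1 or cKO 2, where 3101, 3268 and 2700 genes had an unadjusted p under 0.05, and the 72 without control 2. Of the members DESeq2 called 5 and the neutrophil covariate fit 1, and the 12 other alternatives called 0. These 12 are not all separate checks. Control 1 was the only male, and adjusting for sex nearly repeats leaving it out. With the neutrophil covariate, 7 members were higher and 2 lower at an unadjusted p under 0.05. In that fit 8.14% of all tested genes were higher. Fits without 1 mouse gave 6 to 13 members higher and 0 to 2 lower, where 6.25% to 8.51% of all tested genes were higher. Without 1 mouse, every cKO mouse was above every control in 11 to 19 members and below in 1 to 3. The 19 came without control 1, where 16.7% of all tested genes lay above, against 11.1% with all mice. That share was not counted for the other mice or for genes below, so those counts cannot be read alone. The members' median was 0.0902 with the neutrophil covariate, against 0.31 without it. Why these values moved was not tested. Fits without a mouse have fewer samples, and the neutrophil covariate leaves the genotype difference resting mainly on cKO 3. The median of all genes moved by at most 0.011 under any setting.

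Signs turned only for members whose groups overlapped. Where every cKO mouse lies above every control, leaving out a mouse can hardly turn the sign. For members with groups apart, the kept signs in those fits therefore add nothing. With the neutrophil covariate the log2 fold change was -0.25 for Ackr2, -0.054 for Ackr3, -0.28 for Ccl22, -0.90 for Ccr3, -0.28 for Ccr9, -0.036 for Cxcl10 and -0.22 for Xcr1. With the sex covariate it was -0.10 for Ackr2, -0.0025 for Ccl25, 0.11 for Ccl5, 0.21 for Ccr2, -0.047 for Cxcr4 and 0.12 for Cxcr6. These values lie close to those without control 1, the only male, and are no separate check. Ccr2 was 0.0010 with RLE scaling, 0.0053 with upper-quartile scaling, 0.0072 without a filter, 0.0038 with the filter of 1 CPM in 3 libraries and 0.023 with limma, and Ccr3 was -0.12 with limma. Without 1 mouse the range was -0.10 to 0.21 for Ackr2, -0.042 to 0.17 for Ccl25, -0.56 to 0.19 for Ccl5, -0.63 to 0.10 for Ccl8, -0.16 to 0.21 for Ccr2 and -0.36 to 0.38 for Ccr3. It was -0.16 to 0.25 for Ccr9, -0.28 to 0.17 for Cxcl1, -0.027 to 0.21 for Cxcr3, -0.042 to 0.11 for Cxcr4, -1.28 to 0.12 for Cxcr6 and -0.023 to 0.67 for Xcr1. Low counts limit the genes under 0.1 CPM, where 1 count is 0.0150 to 0.0187 CPM.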
